A study of Arabidopsis thaliana with 24 samples.

Results

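The type-A response regulators of Arabidopsis are a family of cytokinin response genes, and all 10 of them (ARR3, ARR4, ARR5, ARR6, ARR7, ARR8, ARR9, ARR15, ARR16 and ARR17) were picked by their gene identifiers out of 33055 genes in the count table. Of the 10 genes, 8 passed the filter on low counts and were tested, while ARR3 and ARR17 fell under it. RNA was sequenced from pistils of flowers at stages 11 to 12, before anthesis, with 4 libraries in each of 6 groups and 24 libraries in all. The genotypes were 35S::PIF4, which expresses the bHLH factor PIF4 from the constitutive viral 35S promoter, and phyB, a mutant of phytochrome B, which senses red light and temperature, and the wild type was Col-0. Each genotype was sampled at high ambient temperature (hAT, 28 °C by day and 24 °C at night) and at normal ambient temperature (nAT, 21 °C by day and 18 °C at night), under days of 16 h (150 µmol of light) and nights of 8 h. All plants were raised at nAT, and the hAT plants were moved once flowering had begun. The 35S promoter is active in most tissues rather than in those that normally make PIF4, and the phyB line carries a point mutation, so its transcript need not be lost. The samples are labelled as pistils, although the extraction notes also speak of ovules.

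Cytokinins are sensed by histidine kinase receptors (AHKs), which pass a phosphate through phosphotransfer proteins (AHPs) to the type-B response regulators, a class of transcription factors. Type-B regulators switch on the type-A genes within minutes, and the type-A proteins, which hold a receiver domain but no DNA-binding domain, dampen the same pathway, so that their transcripts are widely used as a readout of it. In the gynoecium, cytokinin promotes the meristematic tissue at the carpel margins and the formation of ovules. Phytochrome B is inactivated faster in warmth, and its loss of activity releases PIF4, which switches on growth genes.

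The windows of 250 bases upstream of the annotated start were read for all 10 genes from the RefSeq genome (TAIR10.1), whose gene coordinates were the same as those of the count table for 99.95% of 32547 shared genes and for all 10 members. They were searched on both strands for AGATT and AGATACG, which type-B regulators bind, and for CACGTG and CATGTG, which PIF factors bind. AGATT stood in 7 of 10 windows and in 63.7% of 27443 protein-coding promoters of the same length, AGATACG in 0 of 10 windows and in 1.69% of promoters, CACGTG in 0 of 10 windows and in 6.49% of promoters, and CATGTG in 3 of 10 windows (ARR3, ARR4 and ARR8) and in 11.1% of promoters. The windows of ARR5, ARR6 and ARR7 are shown because the levels of these genes ran most alike over the 6 groups, and that of ARR8 because it had the widest range. They are written 5′ to 3′ on the gene's strand, with matches to any of these motifs on either strand in capitals.
ARR5: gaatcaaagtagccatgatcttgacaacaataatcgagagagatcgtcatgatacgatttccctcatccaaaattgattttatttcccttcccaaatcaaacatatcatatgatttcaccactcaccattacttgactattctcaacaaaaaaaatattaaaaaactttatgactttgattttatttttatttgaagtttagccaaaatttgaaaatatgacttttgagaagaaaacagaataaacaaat
ARR6: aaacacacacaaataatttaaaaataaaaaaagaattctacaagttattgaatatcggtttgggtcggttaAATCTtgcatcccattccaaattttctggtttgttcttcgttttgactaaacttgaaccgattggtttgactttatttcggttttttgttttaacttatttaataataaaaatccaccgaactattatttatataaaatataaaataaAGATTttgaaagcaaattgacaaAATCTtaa
ARR7: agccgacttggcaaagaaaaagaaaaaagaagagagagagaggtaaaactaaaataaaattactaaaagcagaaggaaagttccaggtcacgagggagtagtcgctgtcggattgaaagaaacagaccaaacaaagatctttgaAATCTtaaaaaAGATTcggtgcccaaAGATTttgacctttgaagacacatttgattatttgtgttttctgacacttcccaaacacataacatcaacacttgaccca
ARR8: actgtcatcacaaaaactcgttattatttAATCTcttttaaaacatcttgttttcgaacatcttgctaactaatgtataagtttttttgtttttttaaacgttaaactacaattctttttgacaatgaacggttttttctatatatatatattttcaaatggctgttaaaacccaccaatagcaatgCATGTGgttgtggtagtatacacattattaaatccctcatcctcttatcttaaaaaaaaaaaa
The ARR5 window lies at chr3:17760951-17761200 on the minus strand and held none of these motifs. The ARR6 window at chr5:25254319-25254568 (minus strand) held AGATT 3 times, at 179, 31 and 8 bases before the start, and the ARR7 window at chr1:6579315-6579564 (minus strand) also 3 times, at 106, 95 and 80 bases before it. The ARR8 window at chr2:17221590-17221839 (plus strand) held AGATT once, at 221 bases, and CATGTG once, at 63 bases. A promoter of this length held 1.04 matches to AGATT on average, and a match describes the letters only.

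Total counts per library ran between 18379748 and 30184035. The 4 Col-0 nAT libraries stood apart from the other 20. Their TMM scaling factors were 0.675 to 0.797, against 0.996 to 1.09 in the other libraries, their 10 most abundant genes took 6.42% to 6.62% of counts, against 3.28% to 3.86%, and the mean length of the genes that their counts came from was 1612 to 1804 bases, against 2065 to 2220 bases. Summed levels of 6 photosynthesis genes were also highest there, at 13255 to 16251 CPM (counts scaled to library size with the TMM factors), against 5201 to 8254 CPM elsewhere. Col-0 nAT is the reference of 3 of the comparisons made here, and Col-0 hAT of a further pair, so these share their controls, and the part of the differences in library make-up was not tested except by a gene length offset, fitted library by library. All 10 carpel and ovule markers were detected in each group, with a sum of 527 to 694 CPM. Petal and stamen identity genes summed to 29.1 to 102 CPM, 6 pollen markers to 27.3 to 142 CPM, and 10 tapetum markers, of which 7 or 8 were detected in a group, to 74.2 to 82.6 CPM in phyB nAT and 4.62 to 54.1 CPM elsewhere. PIF4 averaged 5.93 ± 0.311 CPM in 35S::PIF4 nAT and 2.11 ± 0.644 CPM in Col-0 nAT, and 4.42 ± 0.670 CPM in 35S::PIF4 hAT and 2.43 ± 0.300 CPM in Col-0 hAT (SD, n = 4 each). In phyB, PIF4 averaged 3.79 ± 0.254 CPM at hAT and 3.52 ± 0.851 CPM at nAT. At hAT the PIF4 levels of phyB (3.44 to 4.04 CPM) overlapped those of 35S::PIF4 (3.55 to 5.17 CPM). PHYB averaged 77.0 ± 4.13 CPM in phyB hAT and 105 ± 2.36 CPM in Col-0 hAT. At nAT PHYB averaged 62.8 ± 1.97 CPM in phyB and 79.5 ± 18.2 CPM in Col-0, and the libraries overlapped (59.9 to 64.1 CPM and 52.8 to 93.5 CPM).

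Per length, ARR7 and ARR4 were the most abundant type-A transcripts in each of the 6 groups. ARR7 made up 26.5% to 32.8% and ARR4 21.8% to 31.0% of the summed RPKM (CPM per kb of gene length) of the 10 genes. ARR5, ARR6, ARR8 and ARR9 followed with group means of 2.38 to 18.4 RPKM, ARR15 with 5.46 to 8.63 RPKM and ARR16 with 2.90 to 7.11 RPKM. ARR17 reached at most 0.685 RPKM and ARR3 at most 0.146 RPKM. The summed level of the family was 157.5 ± 4.68 RPKM in 35S::PIF4 hAT and 104.2 ± 8.30 RPKM in 35S::PIF4 nAT, 145.7 ± 9.99 RPKM in phyB hAT and 101.0 ± 1.74 RPKM in phyB nAT, and 112.3 ± 2.04 RPKM in Col-0 hAT and 111.8 ± 15.8 RPKM in Col-0 nAT (SD, n = 4 each). The hAT and nAT libraries thus did not overlap in 35S::PIF4 (153.0 to 163.9 RPKM, against 91.7 to 108.9 RPKM) or in phyB (132.5 to 153.7 RPKM, against 99.3 to 103.4 RPKM), while in Col-0 the hAT libraries (109.9 to 114.4 RPKM) lay inside the range of the nAT libraries (96.1 to 133.8 RPKM). The sums are given under TMM alone, with factors of 0.675 to 0.797 in Col-0 nAT and 0.996 to 1.09 elsewhere, and the comparison in Col-0 depends on them. Scaled by library totals alone, the 8 tested members had a median log2 fold change of 0.65 in Col-0, against 0.12 under TMM. The medians of all tested genes were 0.66 and 0.14. These are whole pistils, so fewer cells of a type and less RNA per cell cannot be told apart.

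**Figure D1:**
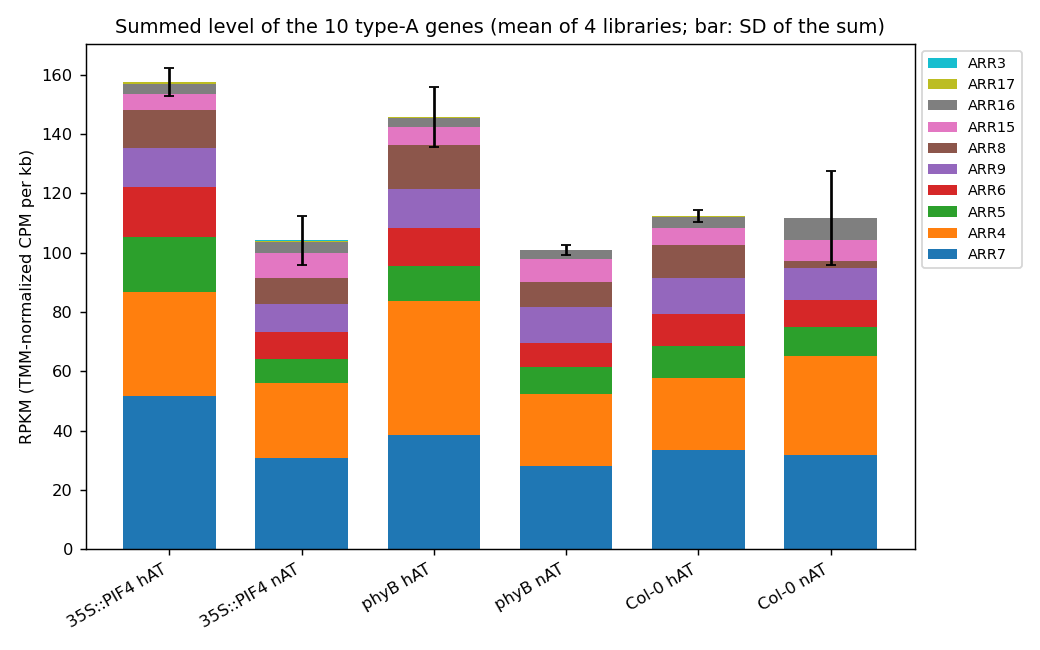
Stacked mean RPKM of the 10 type-A genes (vertical axis) in the 6 groups (horizontal axis), with each colour 1 gene and the bar the SD of the sum over 4 libraries. The sums of 35S::PIF4 hAT (157.5 RPKM) and phyB hAT (145.7 RPKM) stand above the other 4 groups, which lie between 101.0 and 112.3 RPKM. Levels are scaled by TMM, and the place of Col-0 nAT depends on its low factors.

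ARR8 and ARR9 are sister genes, and ARR9 transcripts are known to follow the circadian clock. ARR8 (AT2G41310, TAIR10 chr2:17221840-17224880, plus strand, 2370 bases) was the member with the widest range, its highest group mean being 6.13 times its lowest. Its 4 libraries gave 26.1, 26.5, 26.1 and 26.9 CPM in Col-0 hAT, against 5.47, 2.98, 6.81 and 7.29 CPM in Col-0 nAT, where they rest on 37 to 134 counts. Col-0 nAT was thus below every other library of the series, with no overlap. At nAT the mutant libraries lay together, at 18.0, 20.4, 21.5 and 20.8 CPM in 35S::PIF4 and 20.2, 18.9, 20.6 and 19.0 CPM in phyB. At hAT they were at 31.2, 29.6, 32.1 and 30.2 CPM in 35S::PIF4 and 34.2, 36.7, 34.8 and 32.6 CPM in phyB, above all Col-0 hAT libraries. Against Col-0 hAT the log2 fold change was 0.22 in 35S::PIF4 hAT (adjusted p = 0.115) and 0.39 in phyB hAT (adjusted p = 0.00335), and neither was called. ARR8 rose 4.57-fold in Col-0 at hAT against nAT (log2 fold change 2.19 ± 0.12 SE, adjusted p = 8.68e-15), and it was called higher by 3.49-fold in 35S::PIF4 nAT (1.80 ± 0.12, adjusted p = 7.77e-13) and by 3.41-fold in phyB nAT (1.77 ± 0.12, adjusted p = 1.15e-12) against the same Col-0 nAT libraries. A gene was called here at a Benjamini-Hochberg adjusted p below 0.05 over all tested genes in edgeR's quasi-likelihood test and a log2 fold change of 1 or more in size. Replicate 2 of Col-0 nAT was the lowest library for ARR8, and without it the 3 values were 2.01 in Col-0, 1.62 in 35S::PIF4 nAT and 1.58 in phyB nAT. With the length offset they were 1.78, 1.40 and 1.36, all still called.

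The temperature difference of ARR8 was under the fold threshold in 35S::PIF4 (30.8 ± 1.09 CPM at hAT and 20.2 ± 1.53 CPM at nAT, log2 fold change 0.61, adjusted p = 1.34e-05) and in phyB (34.6 ± 1.73 CPM at hAT and 19.7 ± 0.860 CPM at nAT, 0.81, adjusted p = 3.25e-07), although the libraries did not overlap in either genotype. ARR9 (AT3G57040, chr3:21109059-21111567, plus strand, 1894 bases) was the most even of the tested genes, its highest group mean being 1.38 times its lowest, and each group overlapped its neighbour in the order of levels. It averaged 24.4 ± 1.01 CPM in 35S::PIF4 hAT and 18.2 ± 0.919 CPM in 35S::PIF4 nAT (log2 fold change 0.43, adjusted p = 0.00852), 25.0 ± 2.62 CPM in phyB hAT and 22.9 ± 0.830 CPM in phyB nAT, and 22.9 ± 0.718 CPM in Col-0 hAT and 20.4 ± 7.41 CPM in Col-0 nAT. The wide spread in Col-0 nAT came from 19.5, 30.5, 12.7 and 18.9 CPM in its 4 libraries, with replicate 2 highest. The adjusted p of ARR9 was below 0.05 in the temperature comparison of 35S::PIF4 and in none of the other pairwise comparisons.

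ARR5 and ARR6 are the classic primary response genes of the family, and the ARR5 promoter is a standard cytokinin reporter. ARR5 (AT3G48100, chr3:17758427-17760950, minus strand, 1450 bases) was at 24.26, 28.37, 28.19 and 25.91 CPM in 35S::PIF4 hAT, against 12.80, 12.71, 11.42 and 9.66 CPM in 35S::PIF4 nAT. These are the highest and the lowest of its 6 group means. 35S::PIF4 hAT lay above all libraries of the other groups. 35S::PIF4 nAT lay below phyB nAT, the next in the order of levels, but overlapped Col-0 nAT, which had libraries at 11.93 and 12.05 CPM. phyB gave 18.68, 16.30, 18.39 and 14.99 CPM at hAT and 13.69, 13.50, 12.90 and 13.76 CPM at nAT, and Col-0 gave 15.90, 17.03, 15.77 and 13.67 CPM at hAT and 12.05, 17.83, 11.93 and 14.75 CPM at nAT. The temperatures did not overlap in phyB and did in Col-0. ARR5 rose 2.28-fold in 35S::PIF4 at hAT against nAT (log2 fold change 1.19 ± 0.10, adjusted p = 5.01e-10), the only member called in that comparison. In phyB the value was 0.35 (adjusted p = 0.00987) and in Col-0 0.14 (adjusted p = 0.232). Against Col-0 hAT, ARR5 in 35S::PIF4 hAT had a log2 fold change of 0.78 ± 0.10 (adjusted p = 2.51e-06), under the fold threshold.

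ARR6 (AT5G62920, chr5:25252007-25254318, minus strand, 1459 bases) ran close to ARR5. It was at 25.46, 25.96, 25.36 and 22.84 CPM in 35S::PIF4 hAT, against 13.73, 13.71, 14.57 and 11.47 CPM in 35S::PIF4 nAT, a log2 fold change of 0.89 ± 0.078 (adjusted p = 4.65e-10). In phyB it was at 17.56, 18.22, 20.98 and 18.74 CPM at hAT, against 11.85, 11.89, 10.85 and 12.07 CPM at nAT, a log2 fold change of 0.70 ± 0.081 (adjusted p = 1.18e-07). The temperatures did not overlap in either genotype, yet both values were under the fold threshold. In Col-0 it averaged 15.7 ± 0.797 CPM at hAT and 13.3 ± 1.27 CPM at nAT (0.24, adjusted p = 0.0101). In the order of levels, 35S::PIF4 hAT stood above phyB hAT and phyB hAT above Col-0 hAT, each without overlap, while the 3 nAT groups overlapped. ARR6 shares bases with AT5G62910 on the other strand, as do ARR8 with AT2G09250 and ARR9 with AT3G08825. The strand setting was not given in the sources used here, so reads of the shared bases cannot be assigned with certainty.

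ARR7 and ARR15 are known from the shoot meristem, where WUSCHEL represses them, and from the embryonic root, where auxin induces them. They differed in the direction of their fold changes. ARR7 (AT1G19050, chr1:6577833-6579314, minus strand, 943 bases) was at 43.8, 47.7, 53.4 and 50.4 CPM in 35S::PIF4 hAT, against 30.1, 29.4, 31.7 and 24.7 CPM in 35S::PIF4 nAT, while ARR15 (AT1G74890, chr1:28131447-28133025, minus strand, 1079 bases) was at 6.41, 5.98, 6.17 and 4.99 CPM in 35S::PIF4 hAT, against 10.5, 8.72, 9.40 and 8.64 CPM in 35S::PIF4 nAT. Neither gene's groups overlapped, ARR7 being higher and ARR15 lower at hAT in every library. The log2 fold changes were 0.75 ± 0.11 (adjusted p = 2.70e-06) for ARR7 and -0.66 ± 0.13 (adjusted p = 1.49e-04) for ARR15, both under the fold threshold. In phyB, ARR7 averaged 36.4 ± 4.04 CPM at hAT and 26.4 ± 0.940 CPM at nAT (0.47, adjusted p = 0.00153), and ARR15 averaged 6.71 ± 1.46 CPM at hAT and 8.52 ± 1.45 CPM at nAT (-0.34, adjusted p = 0.0368). In Col-0, ARR7 averaged 31.5 ± 0.480 CPM at hAT and 29.8 ± 7.98 CPM at nAT (0.09, adjusted p = 0.485), the nAT mean resting on 27.4, 41.6, 24.0 and 26.4 CPM in its 4 libraries. ARR15 averaged 6.16 ± 0.299 CPM in Col-0 hAT and 7.73 ± 0.750 CPM in Col-0 nAT (-0.33, adjusted p = 0.0308). In Col-0 the values of these short genes moved with the length offset, to 0.71 for ARR7 (adjusted p = 1.12e-07) and to 0.17 for ARR15, whose direction turned, as it also did with library totals alone (0.19).

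ARR4 binds phytochrome B and is known to keep it in its active form, and ARR3 and ARR4 together set the period of the circadian clock. ARR4 (AT1G10470, chr1:3441988-3444360, minus strand, 2099 bases) was at 90.57, 91.32, 106.36 and 89.96 CPM in phyB hAT, against 52.57, 48.02, 52.33 and 51.70 CPM in phyB nAT. phyB hAT held the highest ARR4 levels of the series, above every library of the other 5 groups. 35S::PIF4 gave 79.18, 74.10, 70.23 and 70.45 CPM at hAT, against 57.03, 59.22, 53.68 and 42.41 CPM at nAT. In Col-0 the order was the opposite, with 52.49, 51.40, 52.48 and 49.37 CPM at hAT, against 75.72, 69.86, 68.73 and 67.64 CPM at nAT. The temperatures did not overlap in any of the 3 genotypes. The log2 fold change of hAT against nAT was 0.89 ± 0.077 in phyB (adjusted p = 9.52e-10), 0.47 in 35S::PIF4 (adjusted p = 1.38e-05) and -0.45 ± 0.078 in Col-0 (adjusted p = 8.46e-06), each under the fold threshold, and the value in Col-0 was 0.07 (adjusted p = 0.435) with library totals alone. That scaling moved the median of all genes in this comparison to 0.66 from 0.14 under TMM.

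At hAT, where the Col-0 nAT libraries do not enter, ARR4 had a log2 fold change of 0.88 ± 0.077 in phyB against Col-0 (adjusted p = 2.69e-09) and 0.51 in 35S::PIF4 against Col-0 (adjusted p = 1.56e-05). At nAT the values were -0.46 in phyB (adjusted p = 7.35e-06) and -0.41 in 35S::PIF4 (adjusted p = 3.95e-05) under TMM, and 0.0063 and 0.018 with library totals alone. The photosynthesis genes were highest in Col-0 nAT, as given above, and ran between 6953 and 7477 CPM in phyB hAT and between 6315 and 6555 CPM in phyB nAT, and their part in the ARR4 levels was not tested. ARR3 (AT1G59940, chr1:22065617-22067233, minus strand, 1311 bases), the sister of ARR4, had 67 counts over all 24 libraries, with a median of 2 and a maximum of 10 in a library, and 5 libraries at 0. A floor of 3 counts is worth 0.0946 to 0.242 CPM here, counting error only, and 9 of 24 ARR3 libraries lay above it, so no difference between groups was detectable at this depth.

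ARR16 and ARR17 form the last pair, and in poplar a relative of ARR17 acts as a switch of sex determination. ARR16 (AT2G40670, chr2:16969673-16972113, plus strand, 2076 bases) was at 6.06, 5.23, 6.02 and 6.74 CPM in phyB nAT and 7.20, 7.29, 8.20 and 7.43 CPM in 35S::PIF4 nAT, against 15.9, 20.6, 9.43 and 13.2 CPM in Col-0 nAT. Col-0 hAT was at 7.43, 9.02, 6.05 and 7.47 CPM. Col-0 nAT was the only group that did not overlap its neighbour in the order of levels, and its libraries spread more than those of any other group. ARR16 fell in phyB nAT against Col-0 nAT (log2 fold change -1.28 ± 0.16, adjusted p = 3.38e-08), a call that was lost with library totals alone (-0.80). The values of -0.97 ± 0.15 in Col-0 hAT against Col-0 nAT (adjusted p = 2.09e-06) and -0.96 ± 0.15 in 35S::PIF4 nAT against Col-0 nAT (adjusted p = 2.54e-06) lay just under the fold threshold and passed it with the length offset, at -1.20 each, and without Col-0 nAT replicate 3, at -1.13 and -1.12. Temperature left ARR16 at 6.69 ± 0.469 CPM in 35S::PIF4 hAT and 7.53 ± 0.454 CPM in 35S::PIF4 nAT (-0.17, adjusted p = 0.367), and at 6.10 ± 0.494 CPM in phyB hAT and 6.01 ± 0.617 CPM in phyB nAT (0.02, adjusted p = 0.923). ARR17 (AT3G56380, chr3:20905264-20906397, plus strand, 618 bases) had 113 counts in all, with 7, 6, 16 and 8 counts in 35S::PIF4 hAT and 9, 9, 5 and 4 counts in 35S::PIF4 nAT. Each group overlapped its neighbour in the order of levels. phyB nAT, on 0 to 4 counts (0 to 0.182 CPM), lay below 35S::PIF4 hAT (0.249 to 0.754 CPM) and 35S::PIF4 nAT (0.186 to 0.379 CPM), and ARR17 was not tested. The nearest libraries of phyB nAT and 35S::PIF4 nAT both held 4 counts, so they differ by the scaling only. The floor of 3 counts is worth 0.0946 to 0.242 CPM, and 14 of 24 ARR17 libraries lay above it.

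**Figure D2:**
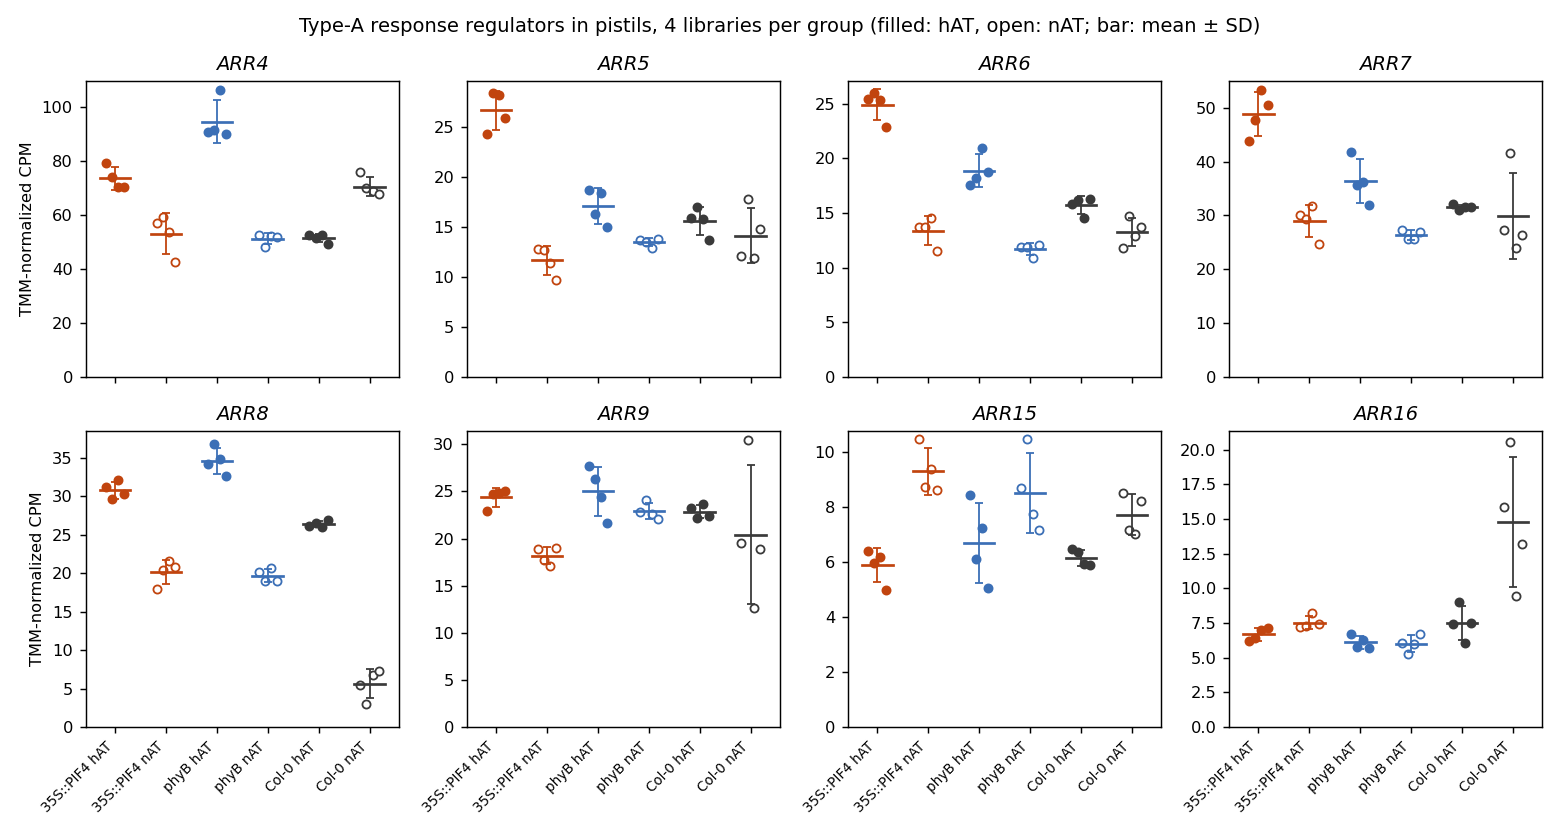
TMM-normalized CPM (vertical axes, from 0) of the 8 tested type-A genes in each library of the 6 groups (horizontal axes), with hAT as filled and nAT as open circles and the bar at mean ± SD of 4 libraries. ARR8 in Col-0 nAT (2.98 to 7.29 CPM) lies below all other libraries, ARR5 and ARR6 are highest in 35S::PIF4 hAT, and ARR4 is highest in phyB hAT.

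The first question of the design is how pistils of each genotype respond to warmth. In Col-0, 1 of 8 members was called higher at hAT (ARR8) and 0 lower, where 24.2% of all tested genes were called higher and 13.4% lower, and at an adjusted p below 0.05 alone 2 members were higher and 3 lower, against 44.7% and 35.5% of all genes. In phyB 0 of 8 were called in either direction, where 4.63% of all genes were called higher and 3.46% lower, and at the adjusted p alone 5 members were higher and 1 lower, against 21.5% and 22.4% of all genes. In 35S::PIF4 1 of 8 was called higher (ARR5) and 0 lower, where 8.5% and 2.48% of all genes were called, and at the adjusted p alone 6 members were higher (ARR4, ARR5, ARR6, ARR7, ARR8 and ARR9) and 1 lower (ARR15), against 25.6% and 27.5% of all genes. The median log2 fold change of the 8 members was 0.54 in 35S::PIF4, 0.41 in phyB and 0.12 in Col-0, while that of all tested genes was -0.0094, -0.0019 and 0.14. The lower median in Col-0 depended on the scaling. With library totals alone the member medians were 0.64 in 35S::PIF4, 0.46 in phyB and 0.65 in Col-0, against 0.097, 0.049 and 0.66 for all genes. With the length offset they were 0.54, 0.48 and 0.24, against -0.0034, -0.0036 and -0.00044. ARR15 had a negative value in each genotype under TMM, which turned in Col-0 with the length offset and with library totals. The 5 female gametophyte markers also summed higher at hAT in each genotype, at 11.6 to 13.9 CPM in 35S::PIF4 hAT and 2.40 to 3.19 CPM in 35S::PIF4 nAT, 11.2 to 13.0 CPM in phyB hAT and 5.95 to 6.57 CPM in phyB nAT, and 14.9 to 17.9 CPM in Col-0 hAT and 4.04 to 5.96 CPM in Col-0 nAT, and their part in the member values was not tested. Other marker sums differed between temperatures as well. The 6 pollen markers summed to 97.7 to 104 CPM in 35S::PIF4 hAT and 41.6 to 86.4 CPM in 35S::PIF4 nAT, and to 134 to 142 CPM in Col-0 hAT and 27.3 to 59.2 CPM in Col-0 nAT. In phyB the temperatures overlapped (49.4 to 125 CPM at hAT and 64.6 to 68.8 CPM at nAT). The photosynthesis sum was 5668 to 6060 CPM in 35S::PIF4 hAT and 7107 to 8254 CPM in 35S::PIF4 nAT. It was also lower at hAT in Col-0, and higher at hAT in phyB. Petal and stamen identity genes were lower at hAT in phyB (29.1 to 45.4 CPM, against 63.6 to 69.6 CPM at nAT) and in Col-0 (54.6 to 59.9 CPM, against 75.8 to 102 CPM) and overlapped in 35S::PIF4. Tapetum markers were lower in phyB hAT (8.26 to 22.2 CPM) than in phyB nAT. The sum of the 10 carpel and ovule markers was lower at hAT in each genotype, at 527 to 575 CPM over the hAT groups and 597 to 694 CPM over the nAT groups. Single markers of this list differed in direction. At the adjusted p alone 2 were higher and 4 lower in Col-0, 1 and 4 in phyB, and 0 and 4 in 35S::PIF4. The part of these sums in the member values was not tested either. Without the 4 Col-0 nAT libraries in the fit, the counts of called members were still 0 in phyB and 1 in 35S::PIF4.

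The second question is how the mutant and the overexpressor differ from the wild type at the same temperature. At nAT, 1 member was called higher (ARR8) and 1 lower (ARR16) in phyB against Col-0, where 21.2% and 11.9% of all genes were called, and 1 was called higher (ARR8) and 0 lower in 35S::PIF4 against Col-0, where 19.3% and 12.2% were. At the adjusted p alone 1 member was higher and 2 lower in phyB, against 42.5% and 35.2% of all genes, and 1 higher and 3 lower in 35S::PIF4, against 39.9% and 37%. The member medians were -0.12 in phyB and -0.09 in 35S::PIF4, against 0.11 and 0.04 for all genes. Their sign depended on the scaling. With library totals alone they were 0.36 and 0.35, against 0.57 and 0.46 for all genes. With the length offset they were 0.075 and -0.0052, against -0.018 and -0.084. At hAT 0 of 8 members were called in phyB against Col-0, where 1.56% of all genes were called higher and 3.22% lower. At the adjusted p alone ARR4, ARR6 and ARR8 were higher (3 members, against 13.9% of all genes) and 0 were lower, against 16.1%. In 35S::PIF4 hAT against Col-0 hAT 0 of 8 were called as well, where 1.47% of all genes were called higher and 1.61% lower. There ARR4, ARR5, ARR6 and ARR7 were higher at the adjusted p alone (4 members, against 10.2% of all genes) with log2 fold changes of 0.51 to 0.78, and 0 were lower, against 12%. The values of ARR6 (0.66 ± 0.078, adjusted p = 3.49e-07) and ARR7 (0.63 ± 0.11, adjusted p = 1.06e-04) in this comparison set 24.9 ± 1.40 CPM in 35S::PIF4 hAT against 15.7 ± 0.797 CPM in Col-0 hAT, and 48.8 ± 4.10 CPM against 31.5 ± 0.480 CPM.

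**Figure D3:**
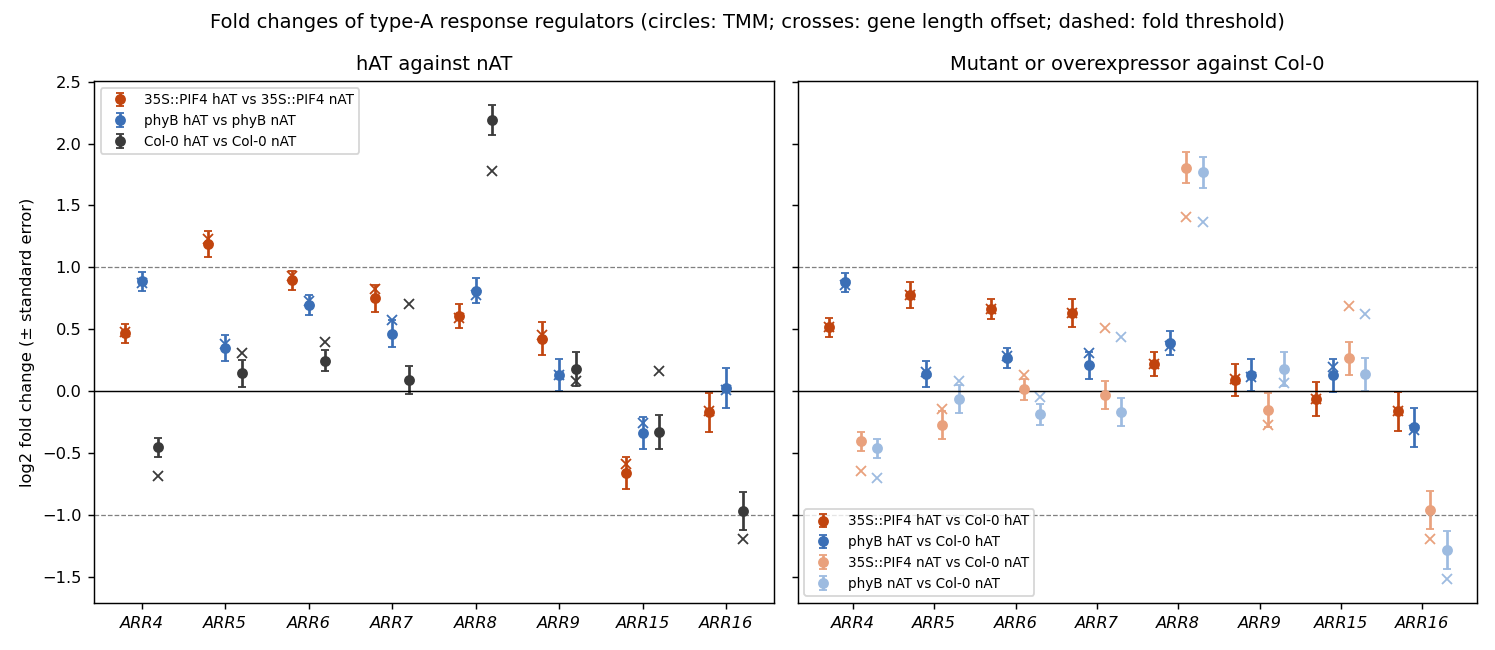
Log2 fold changes (vertical axes) of the 8 tested type-A genes (horizontal axes) for hAT against nAT (left panel) and for phyB or 35S::PIF4 against Col-0 (right panel), as circles with the standard error under TMM and crosses with the gene length offset, with dashed lines at the fold threshold of 1. The crosses leave the circles mainly where Col-0 nAT enters, as for ARR8 (2.19 and 1.78) and ARR7 (0.09 and 0.71) in Col-0.

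Whether the response to warmth itself differed between genotypes was tested as a difference of differences in the same fit. The value is signed, so larger here means more positive and smaller more negative, not stronger or weaker. ARR4 fell in Col-0 (-0.45) and rose in phyB (0.89). ARR16 counts as larger in phyB at the adjusted p alone (0.99), although it fell in Col-0 (-0.97) and was at 0.02 in phyB. Against Col-0, the response of phyB was larger for ARR4 (1.34 ± 0.11, adjusted p = 5.23e-11) and smaller for ARR8 (-1.38 ± 0.16, adjusted p = 2.55e-08), 1 member in each direction, where 10.6% and 21.6% of all genes were called. At the adjusted p alone 4 members had a larger and 1 a smaller response, against 29.8% and 39.6% of all genes. With library totals alone the ARR4 value was 0.87 and no longer passed the fold threshold. The response of 35S::PIF4 against Col-0 was larger for ARR5 (1.05 ± 0.15, adjusted p = 1.17e-06) and smaller for ARR8 (-1.58 ± 0.16, adjusted p = 2.47e-09), where 11.8% and 19.4% of all genes were called, and at the adjusted p alone 5 members had a larger and 1 a smaller response, against 32% and 37.4%. The ARR5 difference was 0.99 without Col-0 hAT replicate 4, 0.93 without Col-0 nAT replicate 2, 0.97 without 35S::PIF4 nAT replicate 4, 0.92 with the length offset and 0.62 with library totals, each under the threshold, whereas ARR8 remained called in all of these. Between 35S::PIF4 and phyB 0 of 8 members were called, where 5.46% of all genes were called larger and 0.896% smaller, and at the adjusted p alone 1 was larger and 1 smaller, against 12.8% and 12.2%, with ARR5 at 0.84 ± 0.15 (adjusted p = 1.36e-04) and ARR4 at -0.42 (adjusted p = 0.00543). Wherever 0 of 8 members were called, no member reached the fold threshold at any p, and DESeq2 and limma voom called 0 as well.

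Because sister genes share a library, their ratio does not depend on its scaling, although it can still depend on gene length. The ratios were chosen after the values had been seen. The CPM of ARR8 over that of ARR9 was 1.12, 1.20, 1.10 and 1.21 in the Col-0 hAT libraries, against 0.280, 0.098, 0.537 and 0.385 in the Col-0 nAT libraries. In phyB it was 1.39 ± 0.114 at hAT and 0.861 ± 0.0538 at nAT, and in 35S::PIF4 1.26 ± 0.0795 at hAT and 1.11 ± 0.127 at nAT. The temperatures did not overlap in Col-0 and phyB and did in 35S::PIF4. ARR7 over ARR15 was 6.83, 7.98, 8.65 and 10.1 in 35S::PIF4 hAT, against 2.87, 3.37, 3.38 and 2.86 in 35S::PIF4 nAT, and 5.53 ± 0.669 in phyB hAT, against 3.16 ± 0.549 in phyB nAT. In Col-0 it was 5.12 ± 0.249 at hAT and 3.91 ± 1.26 at nAT, where replicate 2, at 5.80, overlapped the hAT libraries. ARR5 over ARR6 was higher at hAT in 35S::PIF4 and lower at hAT in phyB. It was 1.07 ± 0.0818 in 35S::PIF4 hAT and 0.871 ± 0.0715 in 35S::PIF4 nAT, and 0.909 ± 0.111 in phyB hAT and 1.16 ± 0.0247 in phyB nAT, without overlap in either. In Col-0 it was 0.995 ± 0.108 at hAT and 1.06 ± 0.117 at nAT, and the temperatures overlapped. With 4 libraries against 4, a 2-sided exact permutation test can reach 0.0286 at the lowest. The pairs of groups without overlap took that value, and over the 21 tests run it adjusted to 0.0600.

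**Figure D4:**
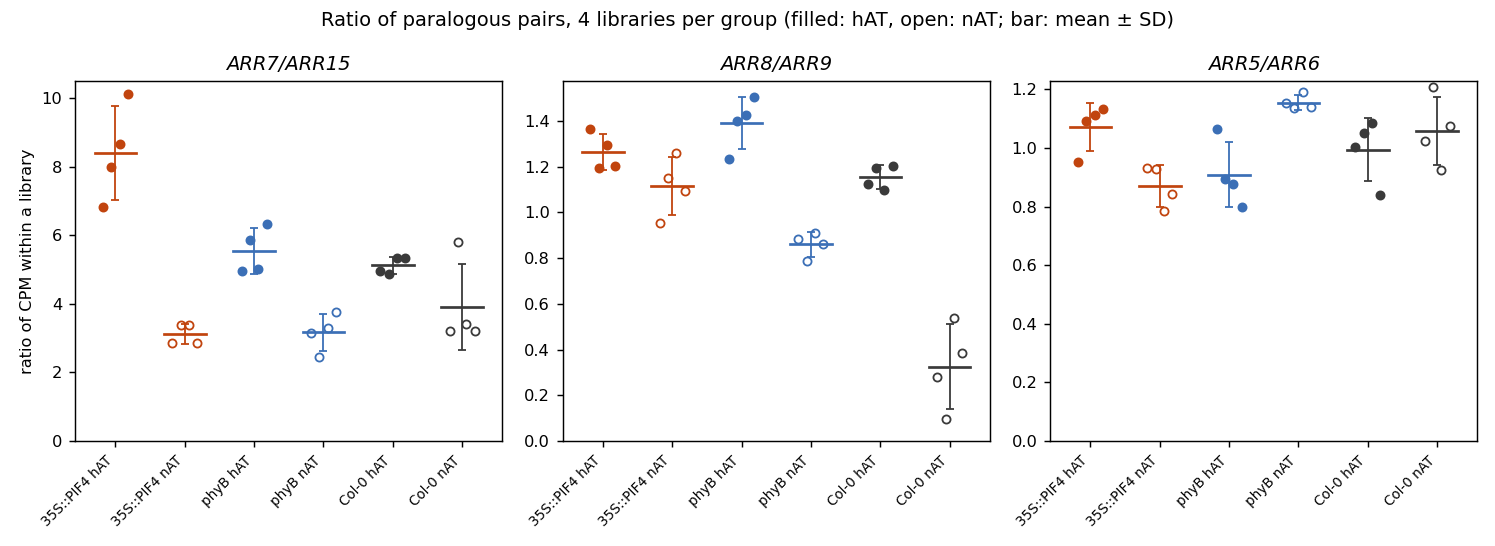
Ratio of CPM within a library (vertical axes, from 0) for ARR7 over ARR15, ARR8 over ARR9 and ARR5 over ARR6 in the 6 groups (horizontal axes), with hAT as filled and nAT as open circles and the bar at mean ± SD of 4 libraries. ARR7 over ARR15 is higher at hAT in all libraries of 35S::PIF4 and phyB, and ARR8 over ARR9 is lowest in Col-0 nAT (0.325 ± 0.185).

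Over the 6 group means of log2 CPM, each centred on its own mean, ARR6 and ARR7 lay closest together (root mean square distance 0.088), followed by ARR5 and ARR7 (0.136) and ARR5 and ARR6 (0.141). ARR8 and ARR16 were farthest apart (1.28), while the sisters ARR7 and ARR15 lay at 0.501 and the sisters ARR8 and ARR9 at 0.787. These are descriptions over 6 points that share libraries. Among 16703 genes, the pattern most like that of ARR5 was the gene AT3G23920 (0.0719), the chloroplast beta-amylase BAM1, that of ARR6 the calcium exchanger gene CAX1 (0.0555), that of ARR7 NCS1 (0.0529) and that of ARR4 COL5 (0.0864), a CONSTANS-like gene. For ARR4 the next were GLO1 (0.0928) and RBCS-2B (0.0969), which encode enzymes of photorespiration and of carbon fixation. ANAC13 was among the nearest 3 of both ARR6 (0.0679) and ARR7 (0.0694). The nearest to ARR8 was NVL (0.0906), to ARR9 the proton pump gene AHA1 (0.0463), to ARR15 CDT1B (0.0519), which licenses DNA replication, and to ARR16 DI19-2 (0.0488).

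The rest of the pathway was followed in 8 lists with 66 genes in all. Of the receptors and related histidine kinases, 5 of 5 tested genes were called higher in Col-0 hAT against Col-0 nAT, 4 of 5 in phyB nAT and 4 of 5 in 35S::PIF4 nAT against Col-0 nAT, and 0 in the comparisons without Col-0 nAT. All genes were called higher at 24.2%, 21.2% and 19.3% in the comparisons with Col-0 nAT, in the same order. AHK2 averaged 57.5 CPM in Col-0 hAT and 20.7 CPM in Col-0 nAT (log2 fold change 1.46, adjusted p = 4.31e-11), and AHK4 32.0 CPM in phyB nAT and 11.0 CPM in Col-0 nAT (1.53, adjusted p = 2.75e-12). AHK2 and AHK4 are cytokinin receptors, whereas AHK1 (1.64 in Col-0, adjusted p = 2.08e-13) is best known as an osmosensor. These are long genes, with a median of 4459 bases, against 1731 bases over all tested genes, and with the length offset 1 of 5 was called in Col-0 and 0 in the other comparisons. Their medians were then 0.11 in Col-0, 0.17 in phyB nAT and 0.19 in 35S::PIF4 nAT, against 1.46, 1.45 and 1.51 under TMM. Scaled by library totals alone, 5 of 5 were called higher in Col-0 hAT, phyB nAT and 35S::PIF4 nAT against Col-0 nAT. Their medians under that scaling were 1.97, 1.91 and 1.93, against 0.66, 0.57 and 0.46 for all genes.

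Of 5 tested phosphotransfer genes, AHP3 was called lower in Col-0 hAT (18.5 CPM, against 45.2 CPM in Col-0 nAT, log2 fold change -1.28, adjusted p = 2.12e-08) and in phyB nAT and 35S::PIF4 nAT against the same libraries (-1.21 and -1.13). AHP6, a pseudophosphotransfer protein that inhibits cytokinin signalling, was called higher in Col-0 hAT (0.976 CPM, against 0.440 CPM in Col-0 nAT, 1.07, adjusted p = 0.00656) and in phyB nAT against Col-0 nAT (1.06). AHP1 was called lower in 35S::PIF4 nAT (0.459 CPM, against 0.973 CPM in Col-0 nAT, -1.08, adjusted p = 0.0260). AHP6 and AHP1 lie below 1 CPM and were named after their values had been seen, to complete the counts. With the length offset and with library totals alone, 1 of 5 was called higher in Col-0 hAT and in phyB nAT, 0 in 35S::PIF4 nAT, and 0 lower in these comparisons. Of the 7 tested type-B regulators, ARR18 was called higher in Col-0 hAT (2.61 CPM, against 0.770 CPM in Col-0 nAT, 1.72, adjusted p = 2.08e-06). Against the same libraries ARR18 was also called higher in phyB nAT (1.25) and 35S::PIF4 nAT (1.58), and ARR11 in phyB nAT (1.15). These are 1, 2 and 1 called higher, where 24.2%, 21.2% and 19.3% of all genes were. The counts were 1, 1 and 1 with the length offset and 3, 3 and 2 with library totals alone. ARR11 was called lower in phyB hAT (0.811 CPM, against 1.92 CPM in phyB nAT, -1.19, adjusted p = 0.00288), the only type-B gene called in a comparison without Col-0 nAT. Of the 7 tested cytokinin response factors and ASL9, transcription factor genes of which several respond to cytokinin, 4 were called lower in Col-0 hAT, 5 in phyB nAT and 3 in 35S::PIF4 nAT against Col-0 nAT, and 3, 4 and 1 with the length offset and 1, 1 and 0 with library totals alone. All genes were called lower at 13.4%, 11.9% and 12.2% in these comparisons under TMM. CRF5 averaged 20.1 CPM in Col-0 hAT and 44.3 CPM in Col-0 nAT (-1.14, adjusted p = 8.53e-12), and CRF1 averaged 4.23 CPM in Col-0 hAT and 13.0 CPM in Col-0 nAT (-1.61, adjusted p = 1.53e-11).

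Among 12 tested genes of cytokinin synthesis, 2 were called higher and 2 lower in Col-0 hAT against Col-0 nAT, where 24.2% and 13.4% of all genes were called, so the counts were near those of all genes. With the length offset they were 2 and 2, and with library totals alone 4 and 1. The called genes include IPT2, a transferase that acts on tRNA (14.1 CPM in Col-0 hAT and 4.31 CPM in Col-0 nAT, log2 fold change 1.68, adjusted p = 6.03e-11), and IPT1, an isopentenyltransferase of the main route (3.54 CPM in Col-0 hAT and 9.64 CPM in Col-0 nAT, -1.44, adjusted p = 6.74e-11). In phyB and in 35S::PIF4 1 was called higher and 0 lower at hAT against nAT. Among 10 tested genes of breakdown and conjugation, 2 were called higher and 0 lower in Col-0 and in 35S::PIF4 at hAT, where 24.2% and 8.5% of all genes were called higher, and 0 in phyB. In Col-0 the counts were 2 higher and 2 lower with the length offset and 4 higher and 0 lower with library totals alone. In 35S::PIF4 2 and 3 were higher. UGT85A1, which glucosylates zeatin, was at 6.56 CPM in 35S::PIF4 hAT and 1.69 CPM in 35S::PIF4 nAT (1.97, adjusted p = 3.36e-11), and at 6.01 CPM in Col-0 hAT and 1.91 CPM in Col-0 nAT (1.66, adjusted p = 4.73e-10). At hAT, UGT73C5 was called higher in 35S::PIF4 (6.08 CPM, against 2.75 CPM in Col-0 hAT, 1.14, adjusted p = 1.12e-05). Of 3 transport genes 0 were called in any pairwise comparison under TMM, and 1 was called lower in 35S::PIF4 nAT against Col-0 nAT with the length offset, and of 2 type-C regulators 0 passed the filter on low counts.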

How the data were processed

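Counts per gene from 24 pistil libraries were deposited by the authors, who trimmed the reads, assigned them to TAIR10 genes with featureCounts and pooled no replicates. The aligner was not given in the sources used here, nor was the strand setting. A second deposited table holds FPKM, which the authors computed from the same counts with gene length and library sizes scaled by median of ratios, and it served as an alternative only. No column was left unmapped.

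The counts were filtered with filterByExpr, scaled by TMM and fitted with edgeR (4.0.16) quasi-likelihood as 6 group means in 1 fit with 18 residual degrees of freedom (R 4.3.3). A gene was called at a Benjamini-Hochberg adjusted p below 0.05 over 21312 genes and a log2 fold change of 1 or more in size. p-values measure the spread between libraries, described as biological replicates, with 1 estimate per gene shared by all groups. The spread was unequal. The SD of the tested members had a median of 23.2% of the mean in Col-0 nAT and of 4.00% to 9.55% in the other groups. The p-values of comparisons with Col-0 nAT can therefore be too small, and those of comparisons without it too large. ARR8 in 35S::PIF4 hAT against Col-0 hAT, for example, had an adjusted p of 0.115 in the edgeR test although the libraries did not overlap. In simulated counts of 21053 genes, gene means and spreads were taken over the libraries of all groups. Of 50 genes above 1 CPM changed 2-fold in Col-0 hAT against Col-0 nAT, 88% reached the adjusted p, and of 50 changed 1.5-fold 76% did. The wider spread and the gene length difference of Col-0 nAT were not simulated, so these shares can be too high for comparisons with Col-0 nAT. Alternatives were RLE scaling, DESeq2 (1.42.0), limma voom (3.58.1), no filter, only the groups compared, a gene length offset, a replicate block, the adjusted p alone, log2(FPKM + 1) with limma, and each library left out. Library totals alone, fits without Col-0 nAT and the ratios of sister genes were added after the data had been seen.

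The members and lists were chosen with earlier results of these data known. All members are described. Other cytokinin genes were named from up to 3 called genes per list and comparison with the largest fold change and at least 1 CPM, and the 3 most alike genes were taken among those with at least 5 CPM in a group. Promoters were cut from the RefSeq genome, and protein sequences were not used here.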

Additional observations from a re-analysis of the deposited data

Results flagged for a closer look

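Within groups of 4 libraries, ARR4 in phyB hAT replicate 3 (106.36 CPM, the others at 89.96 to 91.32 CPM) and ARR9 in 35S::PIF4 hAT replicate 1 (22.873 CPM, the others at 24.8 to 25.1 CPM) lay far from the other 3 libraries. Chance marks about 1 in 20 groups in this way, so with 8 tested members in 6 groups some such marks can arise by chance. Leaving out a library each time kept ARR4 in phyB hAT against phyB nAT at log2 fold changes of 0.825 to 0.910.

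The response to warmth differed between genotypes, by the test of the difference itself, for ARR4 (1.34) and ARR8 (-1.38) in phyB against Col-0 and for ARR5 (1.05) and ARR8 (-1.58) in 35S::PIF4 against Col-0. All 4 values rest on the Col-0 nAT libraries, which stood apart in scaling factor, gene length and photosynthesis transcripts, and the part of that in the differences was not tested beyond the length offset. With this offset ARR4 was at 1.56 and ARR8 at -1.002 in phyB, and ARR8 at -1.19 and ARR5 at 0.92 in 35S::PIF4, the last under the threshold of 1.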

How the results depend on the processing

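Of 355 alternative counts of called members, 323 were within 1.5 times the main count. With the adjusted p alone the counts were 5 in Col-0, 6 in phyB and 7 in 35S::PIF4 for hAT against nAT, 4 in 35S::PIF4 nAT against Col-0 nAT, 3 and 4 in phyB and 35S::PIF4 against Col-0 at hAT, and 5, 6 and 2 for the differences in response of phyB from Col-0, 35S::PIF4 from Col-0 and 35S::PIF4 from phyB. RLE scaling, DESeq2, the gene length offset and the length offset with the replicate block each gave 2 called members in Col-0 hAT against nAT and 2 in 35S::PIF4 nAT against Col-0 nAT, ARR16 being added, as did a fit of only the groups compared in Col-0 (2). Library totals alone gave 2 in 35S::PIF4 hAT against nAT, where ARR6 reached 1.00, 1 in phyB nAT against Col-0 nAT, and 1 for each difference in response from Col-0. limma voom gave 1 for that of 35S::PIF4. The cause was not tested.

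Leaving out single libraries gave counts of 1 to 2 in Col-0 hAT against nAT and in 35S::PIF4 nAT against Col-0 nAT, where ARR16 joined without Col-0 nAT replicate 3 or 4, Col-0 hAT replicate 2 (-1.07) or 35S::PIF4 nAT replicate 3 (-1.001). The counts were 2 to 3 for the difference of phyB from Col-0 and 1 to 3 for that of 35S::PIF4. In the first, ARR16 joined without Col-0 hAT replicate 2, Col-0 nAT replicate 3 or 4, phyB hAT replicate 2 or 4, phyB nAT replicate 4 or 35S::PIF4 nAT replicate 2 (1.01 to 1.15), and in the other ARR4 joined without 35S::PIF4 nAT replicate 2 (1.01). ARR8 was called in all alternatives against Col-0 nAT, with log2 fold changes of 1.78 to 2.71 in Col-0, 1.36 to 2.23 in phyB and 1.40 to 2.22 in 35S::PIF4.

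Directions turned with library totals for ARR4 (0.070 in Col-0, 0.0063 in phyB nAT and 0.018 in 35S::PIF4 nAT), ARR15 in Col-0 (0.19), ARR5 in 35S::PIF4 nAT (0.16) and the differences of phyB from Col-0 for ARR6 (-0.022) and ARR7 (-0.11), since no factor then adjusts Col-0 nAT. They turned with the length offset for ARR15 in Col-0 (0.17) and the phyB difference of ARR7 (-0.13), and with the offset and replicate block at 0.16 and -0.13.

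Replicate numbers did not pair libraries, as 1 of 60 correlations between same-numbered libraries exceeded 0.1 and 9 of 24 libraries correlated best with their own number. The replicate block alone changed no count of called members (ARR8 in Col-0 2.20, ARR5 in 35S::PIF4 1.20). Of all genes called in Col-0 hAT against nAT 64.3% were higher under TMM and 88.9% with library totals, and in phyB nAT and 35S::PIF4 nAT against Col-0 nAT 63.9% and 61.3%, against 89.9% and 86.4%. ARR3 and ARR17 were the only members under the filter on low counts, and ARR8 in Col-0 nAT rests on 37 to 134 counts.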
